A study of Mus musculus with 13 samples.

Results

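Clu encodes clusterin, a secreted glycoprotein that is also called apolipoprotein J. The levels of Clu were followed over 13 libraries of mouse haematopoietic stem cells (HSCs), together with the genes that varied with it. Clu is 1 of 24015 gene symbols in the deposited count table, and it was selected on its CPM in the libraries of each class, which differs between the classes of the study. The genes set beside it were likewise chosen by their log2 CPM in the same libraries. Its class levels are therefore given as a description, with no test.

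Single HSCs expressing Vwf were transplanted into mice and the blood cells that each produced were followed over 16 weeks. By that blood the recipients form 3 classes. PLT-HSC (3 libraries) come from recipients labelled P-restricted, PEM-HSC (6) from recipients labelled PEM-restricted, and MUL-HSC (4) from multilineage recipients. Each library was made from 100 donor-derived cells of the recipients' marrow. All 13 libraries share the strain C57BL/6, the sort phenotype LSKFlt3-CD150+CD48-CD45.2+Gata1- and the origin from a Vwf+ transplanted cell. The classes describe the blood made in a recipient, and the donor cells of a recipient descend from 1 transplanted cell. The labels do not say whether a library holds cells of 1 recipient or whether libraries of a class come from separate recipients. A p-value here is thus read against library-to-library spread, part of which may be technical. In 100 pooled cells, fewer cells with Clu RNA and less Clu RNA per cell cannot be told apart.

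Clusterin works as an extracellular chaperone: it binds unfolded proteins, holds them in solution and delivers them to cells that take them up. It also inhibits the terminal complex of complement and is carried on lipoprotein particles. Cell-surface receptors such as Lrp2 and Lrp8 take it up. In blood, clusterin is stored in platelet granules, and in HSCs Clu is among the genes whose RNA is reported to be higher in old than in young mice.

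Libraries held 16371921 to 41367057 gene counts, and 11233 to 12310 genes had a count. Levels are given in CPM, that is, relative to all gene counts of the same library. The floor of 3 counts corresponded to 0.0725 to 0.183 CPM. Of the sort genes, Kit ran from 187 to 647 CPM and Ly6a from 245 CPM upwards in every library, whereas Flt3 was between 0 and 39.2 CPM and Cd48 between 0 and 59 CPM, the highest Flt3 in MUL-HSC replicate 2 and the highest Cd48 in MUL-HSC replicate 1. Gata1 RNA was between 0 and 27.6 CPM. Cd34 was at 449 to 555 CPM in MUL-HSC replicates 1 and 2, at 380 CPM in replicate 4 and at 90.9 CPM in replicate 3, against 21.7 to 108 CPM in the other 9 libraries.

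Clu was lowest in multilineage cells and differed widely between libraries of every class. In MUL-HSC, replicates 1 and 2 held no Clu count, replicate 3 held 238 counts (14.5 CPM) and replicate 4 held 1834 counts (44.3 CPM). In PEM-HSC, replicates 1 to 6 held 134, 280.4, 42.4, 30.9, 589.8 and 97.0 CPM. In PLT-HSC, replicates 1 to 3 held 311, 602 and 178 CPM. The 3 PLT-HSC libraries were all above the 4 MUL-HSC libraries. PEM-HSC spanned nearly the whole range: replicates 3 and 4 lay below MUL-HSC replicate 4, and replicate 5 was close to the highest PLT-HSC library. In MUL-HSC replicates 1 and 2 the absence of counts allows up to 0.135 and 0.116 CPM, by counting error only, since the protocol as labelled has no molecular identifiers.

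**Figure D1:**
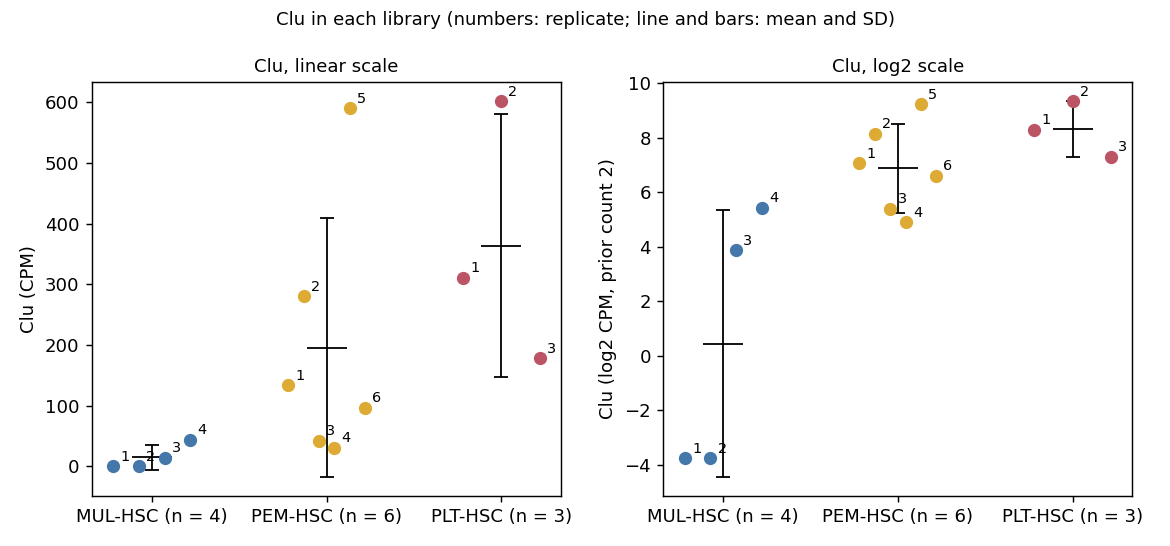
Clu in each of the 13 libraries by class, in CPM on a linear axis (left) and as log2 CPM with a prior count of 2 (right). Points are libraries with their replicate number, horizontal lines are class means and bars are 1 SD; PLT-HSC libraries lie between 178 and 602 CPM, PEM-HSC between 30.9 and 590 CPM, and MUL-HSC between 0 and 44.3 CPM.

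The class means were 14.7 ± 20.9 CPM in MUL-HSC (SD, n = 4), 196 ± 213 CPM in PEM-HSC (SD, n = 6) and 364 ± 217 CPM in PLT-HSC (SD, n = 3). The PEM-HSC mean was 13.3 times and the PLT-HSC mean 24.7 times the MUL-HSC mean, and the PLT-HSC mean was 1.86 times the PEM-HSC mean. The order of means was thus MUL-HSC, PEM-HSC, PLT-HSC. Of all pairs made of 1 PLT-HSC and 1 MUL-HSC library, the PLT-HSC library was higher in 12 of 12. Against MUL-HSC, a PEM-HSC library was higher in 22 of 24 pairs, and against PEM-HSC a PLT-HSC library was higher in 15 of 18. The neighbours PEM-HSC and PLT-HSC in this order overlapped, and the difference of their means was smaller than the SD of either. On the log2 scale, with a prior count of 2, the differences of class means were 7.87 for PLT-HSC and 6.44 for PEM-HSC against MUL-HSC. Both depend on the libraries at 0: without MUL-HSC replicates 1 and 2 they were 3.67 and 2.24. They also depend on the prior count, at 8.87 and 7.44 with 0.5 and at 7.21 and 5.78 with 5. Both comparisons share the same MUL-HSC libraries.

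The spread of Clu within a class was large beside genes of like mean CPM over all 13 libraries. Over libraries of 1 class the SD of log2 CPM was 4.89 in MUL-HSC, 1.63 in PEM-HSC and 1.02 in PLT-HSC. Among the 500 genes closest to Clu in mean CPM (155 to 206 CPM, a window set after the levels were seen), the median SD was 0.33, 0.31 and 0.37, and the SD was lower than that of Clu in 500, 499 and 479 of them. None of the 500 was at 0 in both MUL-HSC replicates 1 and 2. Clu averaged 14.7 CPM in MUL-HSC, below that window, and 364 CPM in PLT-HSC, above it. In those classes the 500 genes are thus not of like level to Clu, and genes of its level there were not compared. Deviations of MUL-HSC libraries made up 82.3% of the sum of squares of Clu around its class means, so the relations within classes given below rest largely on those 4 libraries.

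The genes beside Clu on its chromosome did not share its level. In the order of RefSeq's GRCm38.p6 annotation, used for order only, the nearest genes present in the table are Scara3, Ccdc25 and Esco2 on one side and Gulo, Adam2 and Ephx2 on the other, and no annotated gene overlaps Clu. Scara3, a scavenger receptor, was between 0 and 6.38 CPM. Gulo, an enzyme of vitamin C synthesis, was between 0 and 9.13 CPM. Ephx2 reached 6.75 CPM and Adam2 was at 0 in all 13 libraries. Ccdc25 was present in all libraries, at 30.5 to 103 CPM. It was at 49.4 and 103 CPM in MUL-HSC replicates 1 and 2, where Clu had no count. It was also at 103 CPM in PEM-HSC replicate 5, the highest of its class in Clu. With class means removed, Pearson's r of its log2 CPM with that of Clu was -0.24 over all libraries. Within PEM-HSC and PLT-HSC alone it was 0.72. Esco2, which acts in sister chromatid cohesion, was between 0 and 63.3 CPM, highest in MUL-HSC replicate 2.

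Vwf, the gene of the reporter by which the transplanted cells were chosen, differed between the classes with less spread. It encodes von Willebrand factor, the adhesive protein to which platelets bind. MUL-HSC replicates 1 to 4 held 4.91, 9.42, 13.4 and 12.8 CPM, PEM-HSC replicates 1 to 6 held 61.1, 113, 102, 58.3, 101 and 32.4 CPM, and PLT-HSC replicates 1 to 3 held 104.5, 104.1 and 200 CPM. All 9 PEM-HSC and PLT-HSC libraries lay above all MUL-HSC libraries. The edgeR quasi-likelihood test gave a log2 fold change of 3.72 (SE 0.45, adjusted p = 0.00412) for PLT-HSC and of 2.94 (SE 0.41, adjusted p = 0.0234) for PEM-HSC against MUL-HSC, with Benjamini-Hochberg adjustment over all genes. The second call was lost when any of 5 libraries (replicates 1, 2 and 4 of MUL-HSC, replicate 5 of PEM-HSC and replicate 2 of PLT-HSC) was left out, neither held by limma voom (adjusted p = 0.0973 and 0.390), and neither held without MUL-HSC replicates 1 and 2 (adjusted p = 0.0923 and 0.322). In PLT-HSC against MUL-HSC 0.0479% of 12536 genes were called, 6 in all, and 0.0399% were called higher. In PEM-HSC against MUL-HSC 0.00798% were called, which is Vwf alone.

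Clu and Vwf ranked the libraries much alike across the classes, but less so within a class. PLT-HSC replicate 3 had the highest Vwf and the lowest Clu of its class, and PEM-HSC replicates 3 and 5 had about the same Vwf (102 and 101 CPM) with Clu at 42.4 and 590 CPM. Pearson's r of their log2 CPM was 0.83 over all 13 libraries and 0.48 after class means were removed, and Spearman's rho was 0.83 and 0.49. In PLT-HSC against PEM-HSC no gene passed the test (0% called, 467 genes at an unadjusted p under 0.05); DESeq2 called 114 and limma voom 1. Vwf had a log2 fold change of 0.78 (SE 0.39, adjusted p = 1) in that comparison, by edgeR.

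Several genes varied with Clu between libraries of a class, though not in the order of Clu in every class. Likeness was measured as Pearson's r of log2 CPM, either over the 13 libraries or after class means were removed, among 8312 named genes with a mean of at least 10 CPM. The libraries of a class share their sort and their processing, the genes were picked for their r, and r is a description with no test. Over all 8312 genes the r within classes had a median of 0.0017, and 5% lay above 0.56 and 5% below -0.53. Within classes, genes among the 10 highest were Wdr5b (0.96), Sox18 (0.95), Ramp2 (0.93), Sbspon (0.92), Sall2 (0.92), Pam (0.90), Exoc6b (0.90), Mansc1 (0.90) and Mt1 (0.89). Over the 13 libraries, genes among the 10 highest were Ramp2 (0.97), Exoc6b (0.96), Mt1 (0.96), Mt2 (0.95), Sbspon (0.95), Wdr5b (0.94), Sox18 (0.93), Mansc1 (0.93) and Mycn (0.92).

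Ramp2 encodes a partner protein that turns the calcitonin receptor-like receptor into a receptor for adrenomedullin. MUL-HSC replicates 1 to 4 held 0, 0, 28.4 and 11.9 CPM of it. PEM-HSC replicates 1 to 6 held 84.5, 151, 136, 39, 218 and 61.3 CPM, and PLT-HSC replicates 1 to 3 held 175, 247 and 43.6 CPM. As for Clu, the libraries at 0 were MUL-HSC replicates 1 and 2, the highest were PEM-HSC replicate 5 and PLT-HSC replicate 2, and the lowest PLT-HSC library was replicate 3. All PEM-HSC and PLT-HSC libraries lay above all MUL-HSC libraries.

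Sbspon encodes a secreted protein with somatomedin B and thrombospondin domains. Its levels were 0, 0, 120 and 13.3 CPM in MUL-HSC replicates 1 to 4. They were 209, 260, 37.5, 26.3, 451 and 126 CPM in PEM-HSC replicates 1 to 6 and 153, 418 and 19.5 CPM in PLT-HSC replicates 1 to 3. Within PEM-HSC the order of the libraries was that of Clu, with replicate 5 highest and replicate 4 lowest (r = 0.97, n = 6), while its classes overlapped, since MUL-HSC replicate 3 lay above 2 PEM-HSC libraries and 1 PLT-HSC library.

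Mt1 and Mt2 encode metallothioneins, small proteins that bind zinc and copper. Mt1 was at 11.7, 6.79, 131 and 55.7 CPM in MUL-HSC, at 116, 158, 147, 87.7, 247 and 136 CPM in PEM-HSC and at 296, 301 and 181 CPM in PLT-HSC, in replicate order. Mt2 was at 0 in MUL-HSC replicates 1 and 2, at 9.96 and 2.05 CPM in replicates 3 and 4, at 8.56 to 26.1 CPM in PEM-HSC and at 23.2 to 50.8 CPM in PLT-HSC. For Mt1, unlike Clu, the PLT-HSC libraries all lay above 5 of the 6 PEM-HSC libraries.

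Sox18 encodes a transcription factor of endothelial development. It was at 0.135, 0, 18 and 43.8 CPM in MUL-HSC, at 7.21, 45.6, 12.3, 6.13, 32.8 and 14 CPM in PEM-HSC and at 58.6, 85.1 and 110 CPM in PLT-HSC. The PLT-HSC libraries did not overlap either of the other classes, and PEM-HSC and MUL-HSC overlapped. Within PLT-HSC, Sox18 was highest in replicate 3, the library of that class lowest in Clu. Wdr5b was likewise highest there, at 22.2 CPM against 16.0 and 16.1 CPM in replicates 1 and 2. Exoc6b, a subunit of the exocyst complex that tethers secretory vesicles, was at 3.42, 5.79, 17.8 and 52.8 CPM in MUL-HSC, at 28.2 to 68.6 CPM in PEM-HSC and at 73.7 to 97 CPM in PLT-HSC. The 2 MUL-HSC libraries without Clu were thus the lowest for both Sox18 and Exoc6b.

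**Figure D2:**
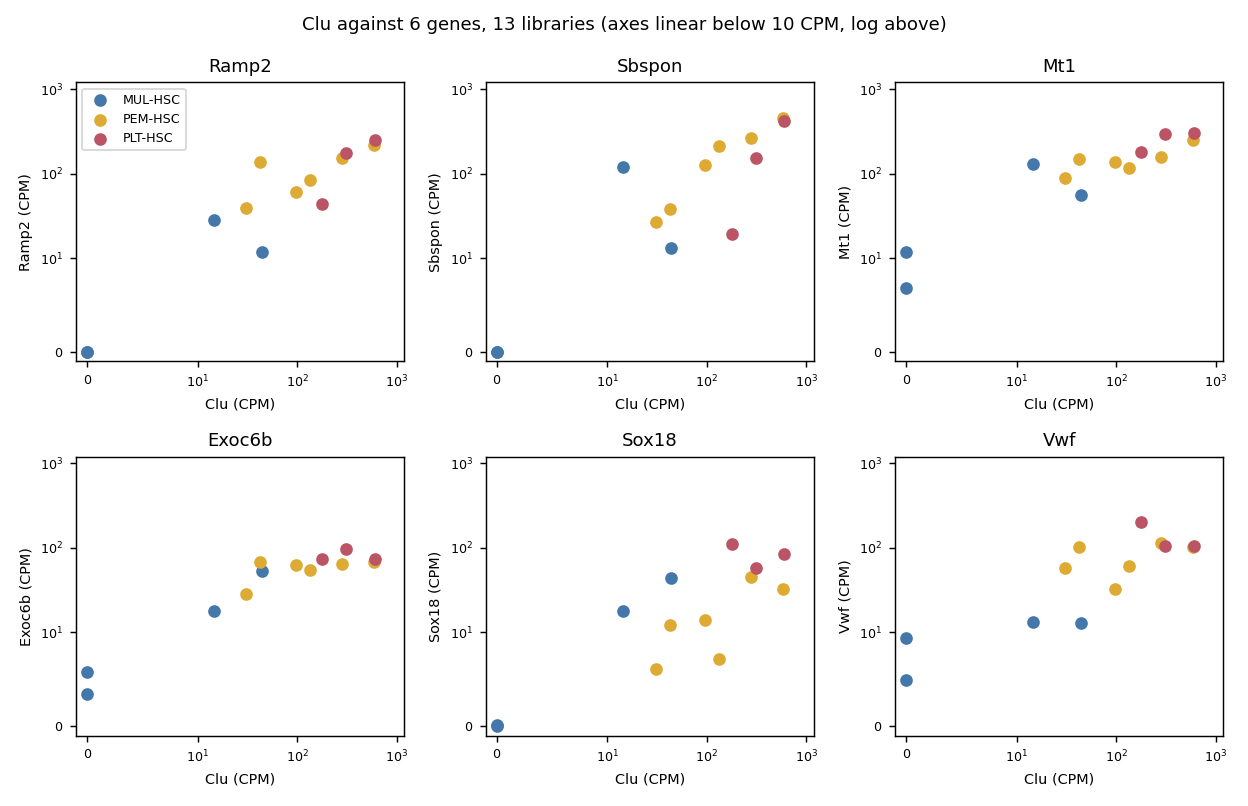
Clu (horizontal axis) against Ramp2, Sbspon, Mt1, Exoc6b, Sox18 and Vwf (vertical axes), in CPM, 1 point per library, coloured by class; axes are linear below 10 CPM and logarithmic above. The 2 libraries at a Clu of 0 are MUL-HSC replicates 1 and 2, which are also at 0 for Ramp2 and Sbspon, and PLT-HSC replicate 3 is the point highest in Vwf.

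The libraries without Clu carry much of this likeness. Of the genes with a mean of at least 10 CPM, 112 were at 0 in exactly 2 libraries, and for 11 of them these were MUL-HSC replicates 1 and 2: Sbspon, Ramp2, Klrb1c, Cnn3, Wdr5b, Gbp10, Mt2, Tuft1, Hoxb6, Snx25 and Fads2. Without these 2 libraries, a setting chosen after the data were seen, r over the remaining 11 libraries was 0.80 for Exoc6b, 0.77 for Ramp2, 0.75 for Mt1, 0.65 for Sbspon, 0.41 for Wdr5b and 0.08 for Sall2. They are also the libraries farthest from the median of Clu. Within PEM-HSC and PLT-HSC alone (9 libraries, class means removed, also chosen after the data were seen), r was 0.91 for Sbspon, 0.83 for Mt1, 0.77 for Wdr5b, 0.74 for Ramp2, 0.72 for Sox18, 0.61 for Exoc6b, 0.48 for Sall2 and 0.34 for Pam. Sbspon was 6th of the 8312 genes there, Mt1 68th and Ramp2 221st.

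In the fit that takes out the class means and asks which genes change per log2 unit of Clu, no gene of 12535 passed an adjusted p of 0.05 by edgeR's quasi-likelihood test (0% called, 718 genes at an unadjusted p under 0.05); DESeq2 called 241 and limma voom 0. The smallest adjusted p was 0.0602, for Sox18, Mt1 and Sbspon. Their log2 levels differed by 0.88 (SE 0.13), 0.37 (SE 0.06) and 1.24 (SE 0.19) per log2 unit of Clu. Next were Ramp2, Wdr5b and Exoc6b, at an adjusted p of 0.147, with 0.84 (SE 0.15), 0.997 (SE 0.18) and 0.31 (SE 0.06), then Efcab4a (0.203), Plscr2 and Cnn3 (0.249) and Trim47 (0.254). Sox18 and Mt1 passed when low counts were left in or a mean of 10 CPM was asked for. Sbspon and Mt1 passed without MUL-HSC replicate 3 and without replicate 4, and Ramp2, Sox18 and Mt1 without PEM-HSC replicate 3. With the number of detected genes as a covariate, Sox18 alone passed (0.92 per log2 unit, adjusted p = 0.0244). Without MUL-HSC replicates 1 and 2 the slopes were 0.52 for Sox18, 0.21 for Mt1, 0.97 for Sbspon, 0.39 for Ramp2, 0.37 for Wdr5b and 0.22 for Exoc6b, each at an adjusted p of 0.999. Within PEM-HSC and PLT-HSC they were 0.50, 0.28, 1.14, 0.47, 0.36 and 0.15, and the smallest adjusted p of the 6 was 0.524, for Sbspon.

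The genes lowest in r were not the same in the 2 rankings. Within classes the lowest r were those of Hfe (-0.93), Ncbp2 (-0.89), Kbtbd7 (-0.85), Hnrnpab (-0.85) and Nudt12 (-0.84). Hfe, which encodes a regulator of iron uptake, was at 9.37 and 8.45 CPM in the MUL-HSC libraries without Clu and at 0 in the other 2, and at 6.51 to 25.7 CPM in PEM-HSC. Over the 13 libraries its r was 0.12. The lowest over all libraries were Cyb5b (-0.89), Tmsb10 (-0.88), Timm23 (-0.88), Cdk2ap1 (-0.87) and Lgals9 (-0.86). Tmsb10, an actin-binding thymosin, was at 75.4, 66.5, 47.4 and 39.5 CPM in MUL-HSC, at 31.1 to 46.4 CPM in PEM-HSC and at 39.8 to 41.4 CPM in PLT-HSC, so that only the first 2 stood apart from the rest. In the association fit the smallest adjusted p of a negative slope was 0.301, for Hfe. Syce2 and Nasp, a histone chaperone gene, followed at 0.529 and 0.619 among genes of at least 10 CPM.

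By class means alone, the 5 genes nearest to Clu were Gpr4, Gpr183, Clec7a, Klrb1c and Ramp2. Gpr4, a proton-sensing receptor, had no count in any MUL-HSC library, 0 to 40.1 CPM in PEM-HSC and 11.3 to 38.8 CPM in PLT-HSC, and its r with Clu within classes was -0.12. Gpr183, a receptor for oxysterols, was at 0, 0, 39.6 and 0 CPM in MUL-HSC, at 0 to 210 CPM in PEM-HSC and at 243, 198 and 7.06 CPM in PLT-HSC. Clec7a, the beta-glucan receptor dectin-1, was at 0 in 3 MUL-HSC libraries, and its r within classes was -0.50. That of Gpr183 was 0.51 and that of Klrb1c 0.55, and within PEM-HSC and PLT-HSC they were 0.77 and 0.64. With 1 library left out, r ran from -0.82 to -0.04 for Clec7a and from -0.23 to 0.11 for Gpr4, and within PEM-HSC and PLT-HSC that of Clec7a was -0.08.

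The genes reported as higher in HSCs of old mice were mostly higher where Clu was higher, though few passed a test. Clu itself was left out of this list, and the list was chosen with earlier results of these data known. Of its 42 tested members, 39 had a positive log2 fold change in PLT-HSC and 40 in PEM-HSC against MUL-HSC, with medians of 1.57 and 1.39. Over all 12536 genes 52.4% and 50.7% were positive, with medians of 0.04 and 0.01. Only 1 member, Vwf, passed the test in each, where 0.0479% and 0.00798% of all genes were called. The 38 members with at least 10 CPM all had a positive r with Clu within classes (median 0.54), where 50.2% of the 8312 genes did. Within PEM-HSC and PLT-HSC, 36 of 38 were positive (median 0.56), against 48.1%. The counts of the lists below, of signs and of calls, are to be read against the same shares over all genes. With so few calls over all genes, the absence of a call in a list is not a result about that list.

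The members of that list with the highest r within classes were Sbspon, Exoc6b, Mt1, Mt2, Plscr2 (0.84), Nupr1 (0.78), Cyp26b1 (0.78) and Sdpr (0.76), and the lowest were Fhl1 (0.16) and Itgb3 (0.22), an integrin subunit of platelets. Nupr1, a stress-response gene, was at 34, 157, 486 and 331 CPM in MUL-HSC, at 269 to 819 CPM in PEM-HSC and at 524, 930 and 276 CPM in PLT-HSC. Its highest PEM-HSC library was replicate 5 and its lowest replicate 3. The mean log2 CPM over the list was 3.24, 4.22, 6.23 and 5.44 in MUL-HSC replicates 1 to 4, 5.84 to 7.35 in PEM-HSC and 7.15, 7.11 and 5.89 in PLT-HSC. Its r with Clu was 0.87 within classes and 0.86 within PEM-HSC and PLT-HSC, and PLT-HSC replicate 3 and MUL-HSC replicate 4 were low in it for their Clu.

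HSC identity genes had a positive log2 fold change in 33 of 37 members for PLT-HSC and 29 of 37 for PEM-HSC against MUL-HSC, with medians of 0.76 and 0.51. Over all genes 52.4% and 50.7% were positive. Only Ctnnal1 passed the test, in PLT-HSC against MUL-HSC, where 0.0479% of all genes were called. Ctnnal1, which encodes alpha-catulin, was at 3.65 to 16.2 CPM in MUL-HSC and at 85.7, 57.1 and 100.4 CPM in PLT-HSC (log2 fold change 2.93, SE 0.50, adjusted p = 0.0487 by edgeR). This call did not hold with any of 11 single libraries left out, where adjusted p reached 0.173. Of the 37 members 31 had a positive r with Clu within classes (median 0.30) and 21 within PEM-HSC and PLT-HSC (median 0.13), where 50.2% and 48.1% of the 8312 genes did. Highest was Ramp2, then Mycn, a transcription factor of the MYC family, at 87, 48.2, 318 and 165 CPM in MUL-HSC, 242 to 491 CPM in PEM-HSC and 387 to 525 CPM in PLT-HSC. Lowest was Cd34 (-0.54).

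Platelet granule and megakaryocyte genes, to whose products clusterin belongs, had signs closer to those of all genes. Of 34 tested members 21 had a positive log2 fold change in PLT-HSC and 19 in PEM-HSC against MUL-HSC, with medians of 0.17 and 0.02, and Vwf was the only one called. Of 25 members with at least 10 CPM, 17 had a positive r with Clu within classes (median 0.18) and 11 within PEM-HSC and PLT-HSC (median -0.04). Pf4, the platelet chemokine, was highest in MUL-HSC replicates 3 and 4, at 148 and 170 CPM, against 39.7 and 39.2 CPM in replicates 1 and 2. It was at 41.7 to 88.5 CPM in PEM-HSC and at 22.1 to 59.1 CPM in PLT-HSC, and its r with Clu was 0.74 within classes and -0.04 within PEM-HSC and PLT-HSC.

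Cell cycle genes were mostly lower where Clu was higher. None passed a test, where at most 0.0479% of all genes were called in any comparison. Of 40 members 6 had a positive log2 fold change in PLT-HSC and 15 in PEM-HSC against MUL-HSC (medians -0.83 and -0.20). Of 36 members with at least 10 CPM, 1 had a positive r with Clu within classes (median -0.38) and 1 within PEM-HSC and PLT-HSC (median -0.50). The mean log2 CPM of the list was 5.96, 5.88, 2.60 and 5.69 in MUL-HSC, 4.78, 3.53, 5.12, 6.34, 4.30 and 4.66 in PEM-HSC and 1.19, 2.72 and 6.01 in PLT-HSC. PLT-HSC replicate 3 and PEM-HSC replicate 4, each the lowest in Clu of its class, were the highest of their class. The r of the list mean with Clu was -0.48 within classes and -0.60 within PEM-HSC and PLT-HSC.

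**Figure D3:**
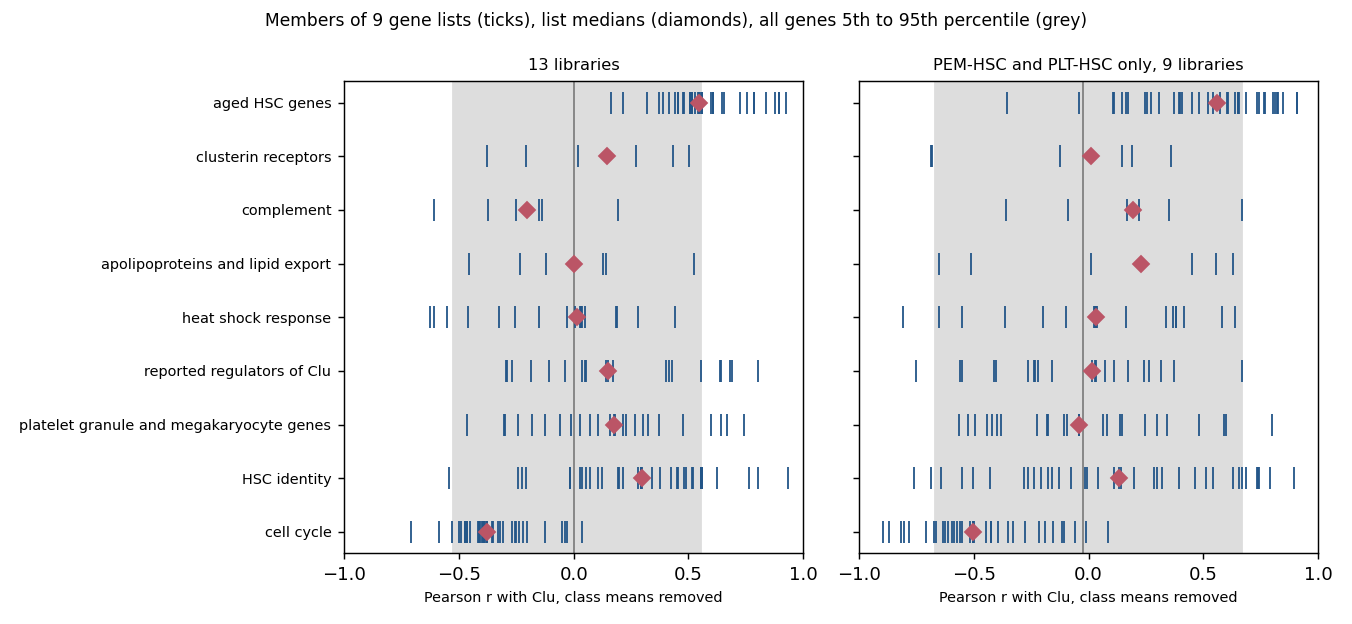
Pearson's r with Clu after class means were removed, for members of 9 gene lists with at least 10 CPM (ticks) and the list medians (diamonds), over 13 libraries (left) and over the 9 PEM-HSC and PLT-HSC libraries (right). Grey spans the 5th to 95th percentile of 8312 genes and the grey line is their median; aged-HSC genes have medians of 0.54 and 0.56, and cell cycle genes of -0.38 and -0.50.

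Genes reported to bind or take up clusterin were mostly low. None passed the test in any of the 3 comparisons, where 0.0479%, 0.00798% and 0% of all genes were called. Of 14 listed, 10 were tested and 6 had a mean of at least 10 CPM. Lrp8, the apolipoprotein E receptor 2, was at 6.38 to 28 CPM in MUL-HSC, 4 to 28.6 CPM in PEM-HSC and 11.4 to 29.9 CPM in PLT-HSC. Scarf1, a scavenger receptor, was at 9.53 to 50.4, 14.1 to 40 and 28.5 to 61.1 CPM. For both genes the 3 classes overlapped. Vldlr, also on the list, was at 9.46 to 23.0 CPM in MUL-HSC and at 0 to 5.05 CPM in PLT-HSC. Every PLT-HSC library thus lay below every MUL-HSC library, the reverse of Clu. Its PEM-HSC libraries ran from 0 to 77.1 CPM and overlapped both. For Tgfbr1, Tgfbr2 and Lrpap1 the ranges of MUL-HSC and PLT-HSC overlapped. Lrp2, or megalin, and Trem2 were at or near 0, with class means of at most 0.014 and 0.048 CPM. Lrpap1, a chaperone of Lrp2 and related receptors in the secretory pathway, was higher, with means of 165, 195 and 150 CPM in MUL-HSC, PEM-HSC and PLT-HSC. The median r of the 6 with Clu was 0.15 within classes.

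Other genes of the processes in which clusterin acts showed no member called, where at most 0.0479% of all genes were called in any comparison. Of 33 complement genes 17 were tested, of which 13 had a positive log2 fold change in PLT-HSC and 15 in PEM-HSC against MUL-HSC (medians 1.02 and 0.99), but 11 of the 17 had less than 10 CPM. Of the 6 at 10 CPM or more, 1 had a positive r with Clu within classes (median -0.20). Within PEM-HSC and PLT-HSC alone 4 were positive (median 0.19), and over all libraries 5 (median 0.10). Cd59a, which like clusterin inhibits the terminal complement complex, had class means of 42.8, 104 and 107 CPM in MUL-HSC, PEM-HSC and PLT-HSC and an r within classes of -0.61. Of 10 tested apolipoprotein and lipid export genes 6 were positive in PLT-HSC and 6 in PEM-HSC against MUL-HSC, and 4 in PLT-HSC against PEM-HSC. Apoe, the most abundant, ran from 463 to 740 CPM in MUL-HSC, 1015 to 1979 CPM in PEM-HSC and 1118 to 2568 CPM in PLT-HSC without overlap with MUL-HSC (log2 fold change 1.62 for PLT-HSC, adjusted p = 0.0911 by edgeR). Its r with Clu was 0.14 within classes, 0.55 within PEM-HSC and PLT-HSC alone and 0.69 over all libraries.

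Heat shock genes, whose products are chaperones inside the cell, had medians of 0.08 and 0.10 in the log2 fold change of PLT-HSC and PEM-HSC against MUL-HSC, with 15 and 17 of 24 positive. Their r with Clu within classes had a median of 0.02, with 10 of 18 positive. Of genes reported to regulate Clu transcription, 19 of 24 were positive in PLT-HSC and 14 in PEM-HSC against MUL-HSC. Of 21 such genes with at least 10 CPM, 15 had a positive r within classes, highest for Mycn (0.80), Junb (0.69) and Tcf7l2 (0.68). Within PEM-HSC and PLT-HSC the median was 0.01. None was called, where at most 0.0479% of all genes were called in any comparison.

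Measures of the library moved with Clu in some libraries and not in all. Within classes over the 13 libraries, r with Clu was 0.14 for log10 total counts, 0.13 for detected genes and -0.45 for the percent of spike-in reads (Spearman's rho -0.01, -0.15 and -0.25; two-sided permutation test, Benjamini-Hochberg adjusted p = 0.787 for each r and 0.980 for each rho). Raw p was 0.787, 0.749 and 0.325 for the 3 values of r and 0.980, 0.692 and 0.549 for those of rho. Leaving out MUL-HSC replicates 2 and 4, the farthest from the median (replicate 1 is as far as replicate 2), r was -0.77, -0.81 and 0.04. The 3 relations thus rest on which MUL-HSC libraries are in.

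Within the 9 PEM-HSC and PLT-HSC libraries, a setting added after the data were seen, Clu was higher where fewer genes were detected. In PEM-HSC, replicates 5, 2, 1, 6, 3 and 4, in falling order of Clu, had 11676, 11737, 11833, 11953, 12084 and 12236 detected genes. In PLT-HSC, replicates 2, 1 and 3 had 11914, 11974 and 12310. The order of detected genes was the reverse of that of Clu in both classes. The r was -0.95 and rho -0.97 (two-sided exact permutation test within classes, raw p = 0.000694 and 0.000463, adjusted over 6 relations 0.00417 and 0.00278), and without PEM-HSC replicates 4 and 5 r was -0.93. Total counts (r = -0.52, rho = -0.40, adjusted p = 0.450 and 0.719) and spike-in reads (r = 0.45, rho = 0.47, adjusted p = 0.450 and 0.632) did not pass. The adjustment does not cover the choice of these 9 libraries after the data were seen. The part of detected genes in the relation of Clu to aged-HSC and cell cycle genes was not tested.

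**Figure D4:**
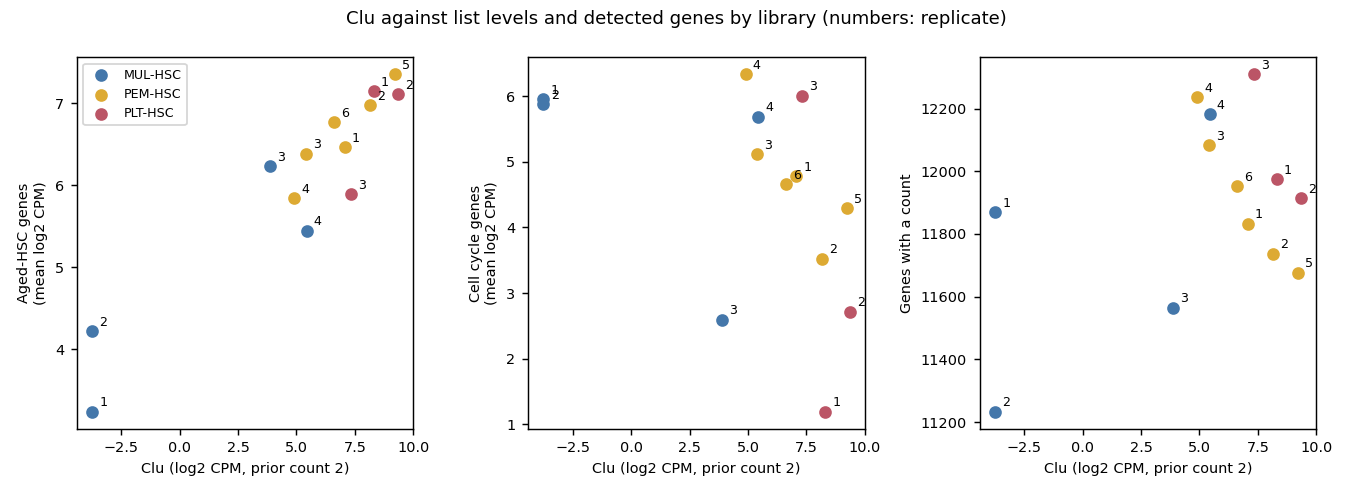
Clu (log2 CPM, prior count 2, horizontal axes) against the mean log2 CPM of 38 aged-HSC genes, the mean log2 CPM of 36 cell cycle genes and the number of genes with a count, 1 point per library with its replicate number, coloured by class. In PEM-HSC and PLT-HSC the number of detected genes falls as Clu rises, from 12310 in PLT-HSC replicate 3 and 12236 in PEM-HSC replicate 4 to 11676 in PEM-HSC replicate 5.

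Markers of other cells were checked beside these levels. The summed level of 14 macrophage markers was 52.5 to 107 CPM in MUL-HSC, 115 to 447 CPM in PEM-HSC and 113 to 294 CPM in PLT-HSC, so it moved with the classes. Cd68 had class means of 14.0, 80.0 and 123 CPM, while Csf1r was at or near 0 throughout. The r of the sum with Clu was -0.22 within classes and 0.10 within PEM-HSC and PLT-HSC. The part of these markers in the class levels of Clu was not tested. The sum of 13 mature megakaryocyte and platelet markers was 135 to 335 CPM in MUL-HSC, 168 to 266 CPM in PEM-HSC and 120 to 212 CPM in PLT-HSC, and overlapped in all classes.

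The 15 stromal and endothelial markers summed to at most 17.2 CPM in any library, with Cdh5 at 0 in all of them, and the 12 erythroid markers to at most 18.3 CPM, with the listed globin genes at 0. The 12 neutrophil markers summed to 278 to 383, 236 to 679 and 188 to 726 CPM in MUL-HSC, PEM-HSC and PLT-HSC, of which Prtn3 made up nearly all, while Ltf was at 0. The 12 lymphoid markers summed to 227 to 400, 228 to 514 and 272 to 469 CPM, mostly Cd79b, Nkg7 and Klrb1c, while Ms4a1, Pax5, Cd3d and Cd3e were at 0.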

How the data were processed

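Polyadenylated RNA of 13 samples of 100 sorted cells was made into cDNA by Smart-seq+ and into Nextera XT libraries, per the labels. The submitters' processing notes name STAR, featureCounts, Trimmomatic and FastQC and the build mm9; the sources used here do not give versions, settings, strand mode or annotation. The authors deposited raw read counts per gene symbol. The 92 rows of spike-ins entered neither the totals nor the tests and came to 0.0191 to 0.0612% of all counts, spike-ins included.

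CPM used each library's total of gene counts. Log2 CPM was scaled by TMM with a prior count of 2. Genes passing filterByExpr were fitted with edgeR 4.0.16 (robust quasi-likelihood, R 4.3.3) over all 13 libraries with a term per class, and again with the log2 CPM of Clu added. Adjusted p-values are Benjamini-Hochberg over all genes, called under 0.05. The fit was tested on simulated counts. No 2 libraries of a class agreed within sampling noise (lowest chi-square per degree of freedom 163). Library measures were tested with 100000 permutations within classes, or over all 4320 orders for the 9 PEM-HSC and PLT-HSC libraries.

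Clu, the 9 gene lists and the 6 marker lists were chosen with earlier results of these data known. Named genes are the 10 highest and 5 lowest by r within classes and over all libraries, the 5 nearest in class means, called or most abundant list members, clusterin receptors, sort genes, neighbours of Clu, and up to 10 genes per sign with the smallest adjusted p for association with Clu, gene models left out; some genes that this rule names are not reported here. Other genes named, and the window of 500 genes, were chosen after their values were seen. Alternatives were DESeq2 1.42.0, limma voom 3.58.1, other scalings, filters, prior counts and covariates, a replicate block, and leaving out libraries.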

Additional observations from a re-analysis of the deposited data

Results flagged for a closer look

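In groups of 4 or 6 libraries, a library was marked where its gap to the nearest other exceeded the critical share of the range. This marked 31 of 164 groups of values of the named genes. Chance marks about 1 in 20 groups where values follow a normal distribution, which CPM need not, so the 31 cannot be read against that rate. Groups with several zeros are marked by any single count above the floor of the others. Clu itself was not marked in either class. Among genes named for their r or their class means, Sbspon was at 120 CPM in MUL-HSC replicate 3 (others at most 13.3), Klrb1c at 30.9 CPM and Gpr183 at 39.6 CPM in the same library, and Clec7a at 10.3 CPM in MUL-HSC replicate 2. Cnn3, named for its slope on Clu, was at 83.0 CPM in MUL-HSC replicate 4. In PEM-HSC, Exoc6b was at 28.2 CPM in replicate 4 (others 54.7 to 68.6) and Efcab4a at 109.9 CPM in replicate 5. PEM-HSC replicate 4, the lowest of its class in Clu, was also marked as high for Nasp (93.8 CPM), Vldlr (77.1 CPM), Kbtbd7 (46.4 CPM), Tlr3 (9.96 CPM), Ugt8a (8.81 CPM), Glyctk (6.13 CPM) and Flt3 (5.34 CPM).

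Of markers and receptors, PEM-HSC replicate 3 was high for Cd68 (239.8 CPM), Tyrobp (6.45 CPM) and Cxcl12 (5.33 CPM), PEM-HSC replicate 6 for Lrpap1 (250.2 CPM), PEM-HSC replicate 1 for Cd48 (15.9 CPM) and Epb4.2 (10.7 CPM), PEM-HSC replicate 2 for Ngp (9.38 CPM) and PEM-HSC replicate 5 for Alas2 (17.1 CPM). In MUL-HSC, Kdr was at 1.83 CPM in replicate 3, Cxcl12 at 4.64 CPM in replicate 4, Slc22a23 at 9.598 CPM and Glyctk at 0.135 CPM in replicate 1, and Kdm4b at 4.28 CPM and Tlr3 at 4.01 CPM in replicate 2. Of the neighbours of Clu, Ccdc25 was at 103 CPM in PEM-HSC replicate 5, Ephx2 at 6.75 CPM in PEM-HSC replicate 6 and Gulo at 0.0451 CPM in MUL-HSC replicate 1.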

How the results depend on the processing

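Called genes in PLT-HSC against MUL-HSC (6) numbered 11 with no filter on low counts, 14 with a mean of at least 10 CPM, 262 by DESeq2, 0 by limma voom, 1 with only the 2 groups compared, 1 without MUL-HSC replicates 1 and 2 together, and 1 to 37 leaving out 1 library (37 when PLT-HSC replicate 3 and 21 when MUL-HSC replicate 3 was left out, and 1 when it was MUL-HSC replicate 1, or replicate 2 of PLT-HSC). In PEM-HSC against MUL-HSC (1) they numbered 177 by DESeq2, 0 once detected genes were a covariate, 0 with only the 2 groups compared, and 0 to 4 leaving out 1 library. In PLT-HSC against PEM-HSC (0) they numbered 114 by DESeq2, 1 by voom and 0 to 2 leaving out 1 library. Genes associated with Clu within classes (0) numbered 2 with no filter, 2 at 10 CPM, 241 by DESeq2, 1 with detected genes as a covariate, 5 with a prior count of 0.5 for Clu, and 0 to 4 leaving out 1 library (4 without MUL-HSC replicate 3). The cause of these differences was not tested.

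With the replicate number as a block, 2, 0, 0 and 0 genes were called in the 3 comparisons and the association. Same-numbered libraries did not deviate together (r of deviations -0.22 to 0.05 over 10 pairs), so no pairing by number was seen. These values cannot show whether same-numbered libraries shared a batch or a donor.

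The log2 differences of Clu class means ran from 6.47 to 9.53 (PLT-HSC against MUL-HSC), 5.04 to 8.10 (PEM-HSC against MUL-HSC) and 0.92 to 1.93 (PLT-HSC against PEM-HSC) leaving out 1 library, and were 3.67 and 2.24 for the first and second without MUL-HSC replicates 1 and 2. Correlations of less than 0.5 in size were read as having no direction when reversals were counted for single genes. Of the genes named for their r, Ncbp2 reversed, to 0.21 over all libraries without MUL-HSC replicates 1 and 2, which are also the farthest from the median. For library measures within classes, leaving out 1 library gave r of -0.81 to 0.66 for total counts, -0.38 to 0.28 for detected genes and -0.61 to -0.19 for spike-in reads. Total counts reversed to -0.81 without MUL-HSC replicate 4, and detected genes to -0.28 and -0.38 without MUL-HSC replicate 2 or 4. Within PEM-HSC and PLT-HSC they were -0.52, -0.95 and 0.45, and without MUL-HSC replicates 1 and 2 detected genes were at -0.55 and spike-in reads at 0.35. Of 242 alternative fits of 10 results of named genes (fold changes of Vwf and Ctnnal1, and 6 slopes on Clu), 188 kept their side of the threshold, 29 lost the call, 25 gained one and 0 changed direction.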
